A study of Mus musculus with 4 samples.

Results

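The immunoglobulin light chain variable genes were the 163 genes of the count table whose name starts with Igkv or Iglv followed by a number, out of 49315 genes. They comprised 160 kappa genes in 20 families, where the family is the first number of the name, and 3 lambda genes, Iglv1, Iglv2 and Iglv3. The study compared group 2 innate lymphoid cells (ILC2s) sorted from mouse lung, to ask how their transcripts differ in Hermansky-Pudlak syndrome, a disorder of lysosome-related organelles in which Hps1 is one of the mutated genes. There were 4 libraries, each the only one of its group. PBS-WT came from wild-type (C57BL/6) mice given PBS, PBS-HPS1 from Hps1-/- mice (labelled HPS1) given PBS, BLEO-WT from wild-type mice given bleomycin, a drug that injures the lung, and BLEO-HPS1 from Hps1-/- mice given bleomycin. The cells were sorted as Lineage- Thy1.2+ ICOS+ T1/ST2+, with CD45R/B220, a surface antigen of B cells, among the lineage antigens, and were cultured with IL-2 before RNA extraction. The labels do not give the number, age or sex of the mice behind each library, nor the route of bleomycin for these libraries. The study's methods give 22405, 38873, 84166 and 128647 cells for PBS-WT, PBS-HPS1, BLEO-WT, then BLEO-HPS1. Unless named otherwise, 4 values that follow each other are in this order of groups. With 1 library per group no difference has a replicate check. Intervals below are exact 95% intervals that cover counting error only, and genotype, treatment and library cannot be told apart.

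An antibody light chain is either kappa or lambda. Its variable domain is made when a developing B cell joins 1 variable (V) gene to 1 joining (J) gene, and the joined exon is spliced to a constant gene, Igkc for kappa or one of the Iglc genes for lambda. The V gene, with its leader exon and its variable exon, is thus kept as a tag of the clone that made the RNA, and B cells and the plasma cells derived from them are the cells known to transcribe joined light chain genes strongly. Kappa V genes lie on both strands, and the strand sets whether joining deletes or inverts the DNA between V and J. Mouse antibodies mostly carry kappa chains, and the lambda locus holds few V genes.

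In the GRCm38 build the kappa members spanned chromosome 6 from base 67555497 to 70704177, with 75 on the plus and 85 on the minus strand, and GENCODE called 100 functional V genes and 60 pseudogenes. The lambda members lay on the minus strand of chromosome 16 between 19085017 and 19260859, and all 3 were called functional. The transcripts of the functional members were short and alike in length, 338 to 501 bases with a median of 362, so that levels of members compare nearly as they would per length, and 9 of the 10 highest members were the same by CPM and by CPM per kilobase. Many members are near copies of each other. The variable exon of a functional member had a median identity of 94.9% with that of its nearest copy (range, 59.4% to 99.0%), 49 of 103 reached 95%, and none had an identical copy. How reads shared by copies were counted is not given, so values of single members with a close copy are uncertain.

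The lambda pair and the leading kappa gene with its nearest copy show how close members can be. Each line gives bases 1 to 300 of the variable exon, read 5′ to 3′ on the coding strand from the GENCODE M21 transcripts, and capitals mark the bases that differ within the pair. Iglv1 (chr16:19085022-19085321, minus strand) and Iglv2 (chr16:19260406-19260705, minus strand) differed at 9 of 305 exon bases, all of them shown. Igkv1-110 (chr6:68270955-68271254, plus strand) and Igkv1-117 (chr6:68121515-68121814, plus strand) differed at 10 of 313, all shown.
Iglv1: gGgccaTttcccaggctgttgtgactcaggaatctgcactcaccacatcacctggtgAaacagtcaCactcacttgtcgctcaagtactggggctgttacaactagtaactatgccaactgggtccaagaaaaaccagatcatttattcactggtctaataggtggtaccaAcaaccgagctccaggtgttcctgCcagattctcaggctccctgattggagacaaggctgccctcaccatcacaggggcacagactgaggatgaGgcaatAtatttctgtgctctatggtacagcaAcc
Iglv2: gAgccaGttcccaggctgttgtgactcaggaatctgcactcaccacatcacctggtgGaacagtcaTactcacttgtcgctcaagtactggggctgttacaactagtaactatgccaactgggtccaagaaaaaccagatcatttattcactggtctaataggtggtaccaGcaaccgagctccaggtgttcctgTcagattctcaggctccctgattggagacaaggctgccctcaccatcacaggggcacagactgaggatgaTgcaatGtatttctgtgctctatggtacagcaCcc
Igkv1-110: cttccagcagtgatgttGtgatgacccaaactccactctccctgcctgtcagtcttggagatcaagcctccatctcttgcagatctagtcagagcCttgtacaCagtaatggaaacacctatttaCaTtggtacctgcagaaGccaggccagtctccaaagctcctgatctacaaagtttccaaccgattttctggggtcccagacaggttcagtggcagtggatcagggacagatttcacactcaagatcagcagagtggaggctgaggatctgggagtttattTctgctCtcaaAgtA
Igkv1-117: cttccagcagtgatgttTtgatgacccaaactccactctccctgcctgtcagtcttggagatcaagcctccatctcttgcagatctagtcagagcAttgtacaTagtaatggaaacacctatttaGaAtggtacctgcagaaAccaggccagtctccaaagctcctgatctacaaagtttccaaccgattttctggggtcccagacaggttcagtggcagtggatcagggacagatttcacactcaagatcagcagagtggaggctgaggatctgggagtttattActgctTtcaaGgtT

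A second set gives the last 60 bases of the variable exon of the kappa members that led a library or differed most between libraries. This stretch holds the start of the third complementarity-determining region (CDR3), the part of the antigen-binding surface made at the V to J junction. Capitals mark a cysteine codon (TGC or TGT) that follows codons for tyrosine and then for tyrosine or phenylalanine, the conserved end of the framework before CDR3. Igkv1-110 (chr6:68271208-68271267), Igkv3-4 (chr6:70672318-70672377), Igkv3-2 (chr6:70699008-70699067) and Igkv15-103 (chr6:68437866-68437925) are on the plus strand. Igkv4-74 (chr6:69184826-69184885), Igkv4-50 (chr6:69700767-69700826), Igkv5-39 (chr6:69900424-69900483), Igkv6-23 (chr6:70260409-70260468) and Igkv8-30 (chr6:70117061-70117120) are on the minus strand.
Igkv1-110: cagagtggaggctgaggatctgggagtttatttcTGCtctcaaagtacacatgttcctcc
Igkv3-4: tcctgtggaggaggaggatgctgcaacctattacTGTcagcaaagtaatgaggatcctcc
Igkv3-2: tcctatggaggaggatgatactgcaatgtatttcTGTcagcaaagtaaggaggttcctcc
Igkv4-74: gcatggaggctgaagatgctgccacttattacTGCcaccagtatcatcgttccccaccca
Igkv4-50: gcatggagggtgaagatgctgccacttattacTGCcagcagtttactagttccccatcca
Igkv5-39: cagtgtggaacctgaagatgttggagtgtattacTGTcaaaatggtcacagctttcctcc
Igkv6-23: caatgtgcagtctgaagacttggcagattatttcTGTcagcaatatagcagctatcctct
Igkv8-30: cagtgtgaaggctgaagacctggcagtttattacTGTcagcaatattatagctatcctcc
Igkv15-103: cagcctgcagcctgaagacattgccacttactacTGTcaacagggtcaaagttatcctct
Among all members, 99 of 103 functional genes and 34 of 60 pseudogenes held such a codon in the last 60 bases. The functional genes had a median of 23 bases after it (range, 18 to 29), which is the germline part of CDR3 that a V gene brings. The letters after the capitals differ between all 9 members shown.

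Total counts per library ran from 72513619 to 87638154. Light chain variable reads were a small part of them, 0.0190% in PBS-WT, 0.0165% in PBS-HPS1, and 0.00616% and 0.0290% in BLEO-WT and BLEO-HPS1. All 14 ILC2 markers present in the table were counted above 3 reads in every library, with a summed level of 807 to 1181 CPM. All 20 B cell markers were above 3 reads in every library too, and the defining ones Cd79a, Cd79b and Ms4a1 were at 0 in no library. The ILC2 marker sum includes Arg1 at 8.34, 4.59, 387 and 257 CPM. Of the 13 ILC2 markers with at least 1 CPM in some library, 3 were at least 2-fold higher and 5 lower with bleomycin in HPS1. Of all genes with that level, 26.2% were higher and 19.6% lower. The median log2 ratio of the 13 markers was -0.75. TMM scaling factors were 1.08, 1.27, 0.895 and 0.816 in the order of groups above. They move values between libraries, and shares within a library do not depend on them.

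Of the 163 members, 105 had more than 3 reads in at least 1 library and 38 had no read at all, 36 of those being pseudogenes. The 68 members with at least 1 CPM (read counts scaled to a common library size, with TMM factors) in some library were kept for calls on single members and are called tested below, with no statistical test, and all 68 were functional V genes. Igkv11-125, at 1.06 CPM in its highest library, was just inside that limit and Igkv2-116, at 0.918 CPM, just outside. The 60 pseudogenes held 27, 60, 7 and 79 reads in PBS-WT, PBS-HPS1, BLEO-WT, then BLEO-HPS1, or 0.196%, 0.468%, 0.130% and 0.352% of the light chain variable reads. The reads therefore fell almost wholly on genes that the annotation calls functional.

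Light chain variable transcripts were lowest in BLEO-WT and highest in BLEO-HPS1. Their reads numbered 13759 in PBS-WT, 12818 in PBS-HPS1, and 5395 and 22430 in BLEO-WT and BLEO-HPS1, or 176.5, 129.5, 68.8 and 355.1 CPM. BLEO-HPS1 was thus 5.16-fold above BLEO-WT, a log2 ratio of 2.37 (2.32 to 2.41). Between the PBS libraries the order was the other way, with PBS-HPS1 below PBS-WT at a log2 ratio of -0.45 (-0.48 to -0.41). Bleomycin against PBS gave -1.36 (-1.40 to -1.31) in WT and 1.46 (1.42 to 1.49) in HPS1, opposite in sign, and the ratios differed by 2.81. In bulk RNA, fewer cells of a type and less RNA per cell cannot be told apart. Without Igkv1-110 the log2 ratio between the PBS libraries was -0.09, beside a median of -0.19 over all genes tested. Other members with many reads went the other way, such as Igkv3-4, with 28 reads in PBS-WT and 1660 in PBS-HPS1. The sum without those members was not computed, so the PBS difference cannot be assigned to 1 member.

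The constant genes gave a second reading of the same transcripts from other bases. Igkc, the only kappa constant gene, had 18610, 14951, 5897 and 26033 reads in PBS-WT, PBS-HPS1, BLEO-WT, then BLEO-HPS1. For each 100 reads of Igkc there were 69.6, 78.2, 75.4 and 75.9 reads of kappa variable genes. Kappa variable reads thus stayed within a narrow range of Igkc while both changed several-fold in level. Lambda variable reads numbered 53.9, 65.6, 67.0 and 66.5 for each 100 reads of the Iglc genes. The members whose log2 CPM followed Igkc most closely over the 4 libraries were Igkv14-111 (Pearson's r = 0.979), Igkv4-57 (r = 0.978) and Igkv12-44 (r = 0.977), a description over 4 points.

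Transcripts of B cells moved with these sums in part. The B cell list of 20 genes had 8 at least 2-fold higher and 0 lower in BLEO-HPS1 against BLEO-WT, where 6.72% and 10.3% of all 14840 genes tested were higher and lower. Its summed level was 5252, 2924, 7558 and 12928 CPM in PBS-WT, PBS-HPS1, BLEO-WT, then BLEO-HPS1, most of it from Cd74, the invariant chain of MHC class II, which many cells other than B cells also express. Cd79a, a signalling chain of the B cell receptor, had 23.7, 30.2, 35.5 and 123.8 CPM in that order. It was highest in BLEO-HPS1, as the variable genes were, but unlike them it was lowest in PBS-WT. Not every gene of the list moved as Cd79a did. Between the bleomycin libraries, HPS1 over WT, Cd79a stood at 1.80 on the log2 scale and Cd79b at 2.00, beside a list median of 0.77. Pax5 stood at 0.03, Blnk at -0.08 and Tnfrsf13c at -0.36. Pax5 was highest in PBS-HPS1, at 24.6 CPM, and Tnfrsf13c was lowest in BLEO-HPS1, at 2.79 CPM. Jchain, which links IgA and IgM into polymers and marks secreting cells, had 78.3, 34.6, 13.1 and 48.1 CPM and was lowest in BLEO-WT. It was the only tested gene of the plasma cell list at least 2-fold lower in BLEO-WT against PBS-WT, where 0 were higher and the median log2 ratio of the list was 0.03. The plasma cell list of 12 genes, 11 of them tested, summed to 518, 449, 511 and 596 CPM, with 3 higher and 0 lower in BLEO-HPS1 against BLEO-WT. The fibroblast list of 6 genes was at 164, 298, 540 and 2680 CPM, with 5 of 6 at least 2-fold higher in that comparison. The T cell list of 8 genes was at 786, 593, 684 and 1234 CPM, with 2 higher and 0 lower, and the myeloid list of 8 genes was at 10928, 7056, 15903 and 15157 CPM, with 1 higher and 1 lower. Of 30 constant, joining and recombination genes of the antibody loci, 14 were tested, and 11 were higher and 0 lower in BLEO-HPS1 against BLEO-WT, 2 and 5 in PBS-HPS1 against PBS-WT, 1 and 7 with bleomycin in WT, and 7 and 1 with bleomycin in HPS1. Of all genes tested 2.16% were higher and 3.11% lower in the second of these comparisons, 5.28% and 8.22% in the third, and 26.2% and 19.6% in the fourth. The part of B cells, plasma cells or other cells in the results was not tested.

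The ratio of lambda to kappa differed between libraries. Lambda members summed to 10.4, 11.4, 12.1 and 42.3 CPM in PBS-WT, PBS-HPS1, BLEO-WT, then BLEO-HPS1, and kappa members to 166, 118, 56.7 and 313 CPM. Bleomycin against PBS in WT gave a log2 ratio of -1.55 (-1.60 to -1.50) for kappa and of 0.23 (0.09 to 0.36) for lambda, so that the lower sum of BLEO-WT was one of kappa genes. The sign of the lambda ratio turned with scaling by total counts alone, to -0.04. In HPS1 the same contrast gave 1.41 (1.37 to 1.44) for kappa and 1.90 (1.80 to 2.00) for lambda. Lambda accounted for 5.87% (5.49% to 6.28%) of light chain variable reads in PBS-WT, 8.78% (8.30% to 9.29%) in PBS-HPS1, and 17.6% (16.6% to 18.7%) and 11.9% (11.5% to 12.4%) in BLEO-WT and BLEO-HPS1. The constant genes gave the same order, with the Iglc genes at 7.45%, 10.3%, 19.4% and 13.4% of constant reads.

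The 3 lambda genes did not move together. Iglv1 had 605 reads in PBS-WT, 366 in PBS-HPS1, and 729 and 1966 in BLEO-WT and BLEO-HPS1. Iglv2 had 143, 607, 99 and 590 reads in that order. Iglv1 was thus the larger of the pair in 3 libraries and Iglv2 in PBS-HPS1, where it made up 53.9% of lambda variable reads against 10.4% to 22.1% elsewhere. In CPM, however, Iglv2 was highest in BLEO-HPS1. Iglv2 was higher in PBS-HPS1 than in PBS-WT by a log2 ratio of 1.73 (1.48 to 2.01), and Iglv1 lower at -1.07 (-1.26 to -0.88), although the pair differs at only the 9 bases capitalized above. Iglv3, whose variable exon is far from the other two in sequence, had 60, 153, 123 and 119 reads.

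Lambda V genes are known to join to set constant genes, Iglv2 mainly with Iglc2, and Iglv1 with Iglc1 or Iglc3. Iglc2 took 37.2% of Iglc reads in PBS-WT, 65.1% in PBS-HPS1, and 33.9% and 37.4% in BLEO-WT and BLEO-HPS1. Its share was thus also highest in PBS-HPS1, while its level was highest in BLEO-HPS1, at 23.8 CPM beside 11.3 in PBS-HPS1. Iglc1 took 45.9%, 20.7%, 28.0% and 43.7%. Iglc3 had 540 of the 1420 Iglc reads of BLEO-WT, above the 398 of Iglc1 there, and took 14.2% to 18.8% in the other 3 libraries. Iglc4 had between 0 and 4 reads.

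**Figure D1:**
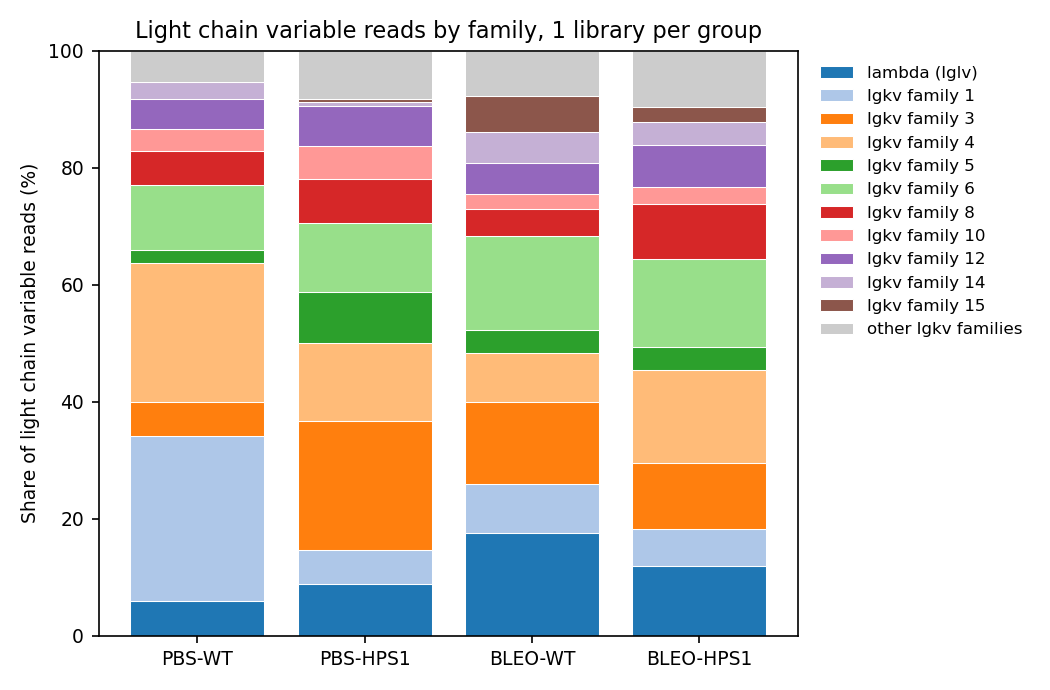
Share of light chain variable reads (%, vertical axis) held by lambda and by each kappa family that reached 5% in some library, for the 4 libraries on the horizontal axis, with the other families in grey. Family 1 filled 28.3% of PBS-WT and 5.94% to 8.27% of the other libraries, and lambda was largest in BLEO-WT, at 17.6%.

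The kappa families that led were different in each library. Family 1 held 28.3% (27.6% to 29.1%) of the light chain variable reads of PBS-WT, against 5.94%, 8.27% and 6.38% in PBS-HPS1, BLEO-WT and BLEO-HPS1. Family 4, the largest with 33 members, held 23.7% in PBS-WT and then 13.4%, 8.49% and 15.9%. Family 3 was the first in PBS-HPS1, at 21.9% (21.2% to 22.6%), with 5.72% in PBS-WT, 14.0% in BLEO-WT and 11.2% in BLEO-HPS1. Family 6 held a steadier part, 11.2%, 11.8%, 16.1% and 15.1%. Family 15 stood out in BLEO-WT, where Igkv15-103, its only member above 3 reads in any library, brought it to 6.15%, against 0.0654%, 0.429% and 2.53% in PBS-WT, PBS-HPS1 and BLEO-HPS1. The plot of shares by family shows these blocks side by side.

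Within the families, a few genes made up these shares. Igkv1-110 supplied 79.8% of the family 1 reads in PBS-WT and 16.3% to 31.8% in the other libraries. In family 4, Igkv4-74 and Igkv4-50 supplied 43.3% and 21.6% in PBS-WT, and neither passed 3.28% in any other library. In family 3, Igkv3-4 supplied 59.1% in PBS-HPS1 and 36.5% in BLEO-HPS1 but 3.56% and 4.89% in the WT libraries, where Igkv3-2 held 40.0% in PBS-WT and 80.7% in BLEO-WT. Igkv3-12, named after its values were seen, held 51.0% of the family in PBS-WT.

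**Figure D2:**
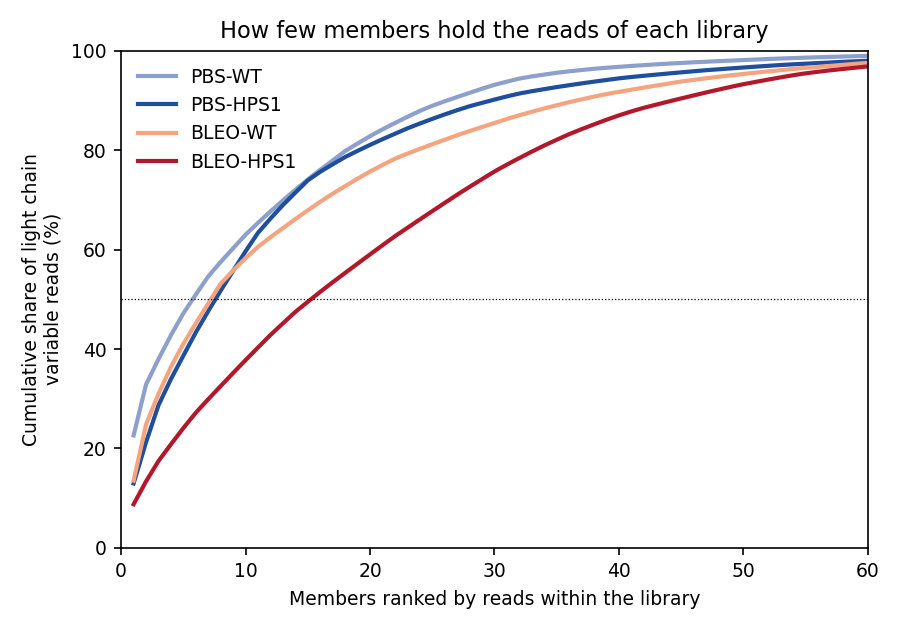
Cumulative share of light chain variable reads (%, vertical axis) over members ranked by reads within each library (horizontal axis, first 60 ranks), 1 line per library, with a dotted line at 50%. The lines of PBS-WT, PBS-HPS1 and BLEO-WT crossed 50% at 6, 8 and 8 members and that of BLEO-HPS1 at 16.

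A few members held most reads in 3 of the libraries, and BLEO-HPS1 was the most even. The first member was Igkv1-110 in PBS-WT, with 22.6% (21.9% to 23.3%) of the reads, Igkv3-4 in PBS-HPS1, with 13.0% (12.4% to 13.5%), and Iglv1 in BLEO-WT and BLEO-HPS1, with 13.5% (12.6% to 14.5%) and 8.77% (8.40% to 9.14%). The 10 first members together held 63.0%, 59.7%, 58.3% and 37.8%. An effective number of members, the inverse of the sum of squared shares, was 12.7 in PBS-WT, 20.3 in PBS-HPS1, and 19.7 and 37.5 in BLEO-WT and BLEO-HPS1. The cumulative curves show BLEO-HPS1 below the other libraries through the 60 ranks plotted. Without its first member PBS-WT rose to 21.6, near the 23.2 of PBS-HPS1 and the 23.0 of BLEO-WT without theirs, whereas BLEO-HPS1 stood at 43.8.

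Depth bears on how many members were seen at all. More than 3 reads were counted for 75 members in PBS-WT, 90 in PBS-HPS1, and 78 and 88 in BLEO-WT and BLEO-HPS1. After thinning each library to the 5395 light chain variable reads of BLEO-WT, the numbers became 60.2, 69.7, 78 and 76.7. At matched depth the bleomycin libraries thus counted more members than the PBS libraries, and the unthinned order of PBS-HPS1 and BLEO-WT was turned. The libraries with more sorted cells were also those from bleomycin-treated mice, and the part of cell number was not tested.

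The lists of first members overlapped little. Of the 10 first members of each library, 25 different genes in all, PBS-WT shared 2 with PBS-HPS1, 4 with BLEO-WT and 2 with BLEO-HPS1. PBS-HPS1 shared 1 with BLEO-WT and 4 with BLEO-HPS1, and BLEO-WT shared 5 with BLEO-HPS1. No member was in all 4 lists. Over all 105 members above 3 reads, the first ranks included, Spearman's rho between libraries was 0.589 to 0.811, highest between the bleomycin libraries, a description across genes that share each library's depth and loading.

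**Figure D3:**
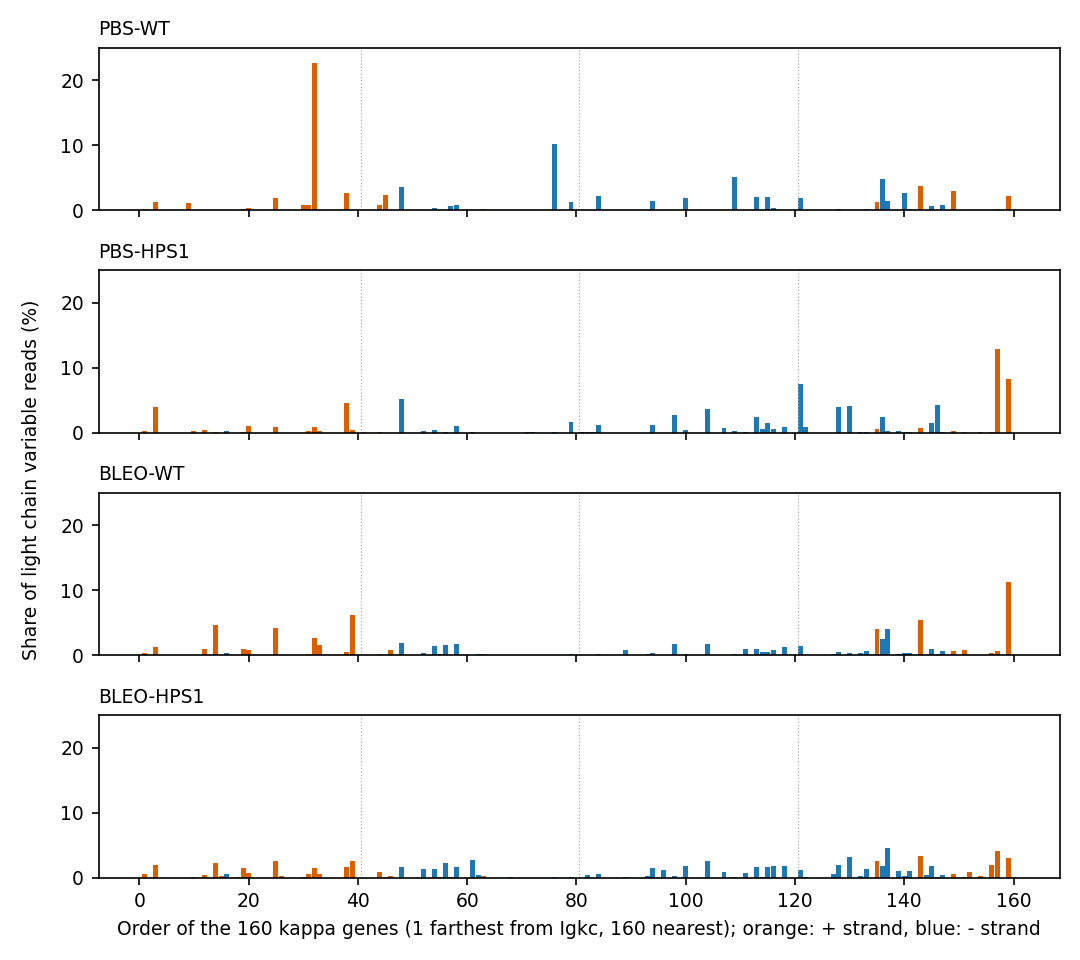
Share of light chain variable reads (%, vertical axis) of each of the 160 kappa genes in their order along the locus, from the gene farthest from Igkc at the left to the nearest at the right, in 1 panel per library, with dotted lines between blocks of 40 genes. Orange bars are plus strand genes and blue bars minus strand genes, and the tallest bar of PBS-WT is Igkv1-110, at 22.6%.

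Position along the kappa locus also differed between libraries. The 40 kappa genes nearest Igkc held 24.6% of light chain variable reads in PBS-WT, 49.7% in PBS-HPS1, and 36.6% and 37.4% in BLEO-WT and BLEO-HPS1. That block has 34 functional genes against 22 in each of the other blocks of 40. The 40 farthest genes held 32.8%, 14.3%, 24.9% and 18.8%. The plot in locus order shows that single genes made up much of this, with Igkv1-110 in the farthest block and Igkv3-4 and Igkv3-2 in the nearest.

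Plus strand kappa genes share the orientation of Igkc and join by deletion, and minus strand genes join by inversion. The strands differed in the size of some ratios but not of all. Plus strand kappa genes summed to 82.8, 49.0, 34.0 and 130.7 CPM in PBS-WT, PBS-HPS1, BLEO-WT, then BLEO-HPS1, and minus strand genes to 83.4, 69.1, 22.7 and 182.1 CPM. BLEO-HPS1 against BLEO-WT gave a log2 ratio of 1.94 (1.88 to 2.01) on the plus and 3.01 (2.93 to 3.08) on the minus strand. For PBS-HPS1 against PBS-WT the plus and minus strands gave -0.76 and -0.27, and for bleomycin in WT -1.28 and -1.88. For bleomycin in HPS1 they were alike, at 1.41 and 1.40.

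In BLEO-HPS1 against BLEO-WT nearly every tested member was higher. Among all 163 members 83 were at least 2-fold higher and 3 lower, where 6.87% and 8.65% of all 49315 genes were with no filter on low values. Among the 68 tested members 64 were higher and none lower, with the background of 6.72% and 10.3% given above, but a member that passed the limit only through the library where it is high had to differ. The median log2 ratio of the 68 was 2.81, beside -0.04 over all genes tested. Over the 103 functional genes with no filter it was 1.94.

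Igkv8-30 had the largest ratio among members that reached 10 CPM in the higher of the pair of libraries. Its reads numbered 18 in PBS-WT, 527 in PBS-HPS1, and 22 and 734 in BLEO-WT and BLEO-HPS1, low in both WT and high in both HPS1 libraries, and BLEO-HPS1 stood above BLEO-WT by a log2 ratio of 5.25 (4.76 to 6.06). Igkv3-4 shared this order, with 28, 1660, 37 and 919 reads and a ratio of 4.87 (4.47 to 5.46). Igkv6-23 differed from them. Its reads numbered 210, 43, 215 and 1032, lowest in PBS-HPS1, with a ratio of 2.56 (2.36 to 2.79). The smallest ratio of the named kappa genes was that of Igkv3-2, with 315, 1064, 610 and 693 reads and a ratio of 0.49 (0.34 to 0.66).

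In PBS-HPS1 against PBS-WT members moved both ways and far. Among all 163 members 36 were at least 2-fold higher and 30 lower, where 13.7% and 3.94% of all genes were with no filter. Among the 68 tested, 20 were higher and 23 lower, where 2.16% and 3.11% of all genes tested were. Their median, at -0.06, was close to the -0.19 of all genes tested. Their spread was wide, with an SD over members of 2.72 on the log2 scale beside 0.57 over all genes tested. With no filter the SD was 1.89 over all 163 members and 2.33 over the 103 functional members.

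The members that led PBS-WT had far fewer reads in the other libraries. Igkv1-110 had 3111 reads in PBS-WT, 124 in PBS-HPS1, and 142 and 356 in BLEO-WT and BLEO-HPS1, and its log2 ratio of PBS-HPS1 to PBS-WT was -4.97 (-5.26 to -4.73). Igkv4-74 had 1410, 16, 7 and 39 reads and a ratio of -6.60 (-7.62 to -6.10). Igkv4-50 had 703, 28, 15 and 35 reads and a ratio of -4.88 (-5.60 to -4.45). All 3 had their highest level in PBS-WT by far, and Igkv1-110 was also among the 10 first members of BLEO-WT. Igkv1-117, chosen after its values were seen as the nearest copy of Igkv1-110, had 267, 115, 223 and 582 reads. There were 11.7 reads of Igkv1-110 for each read of Igkv1-117 in PBS-WT, against 1.08, 0.637 and 0.612 in the other libraries, so that the counts of this pair, with 10 different exon bases, did not keep a fixed ratio.

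In the other direction, Igkv3-4 was higher in PBS-HPS1 than in PBS-WT by a log2 ratio of 5.45 (5.01 to 6.14). Igkv5-39 had 260, 954, 81 and 260 reads in PBS-WT, PBS-HPS1, BLEO-WT, then BLEO-HPS1, and its ratio between the PBS libraries was 1.52 (1.33 to 1.73). It was highest in PBS-HPS1 and lowest in BLEO-WT, and no 50-base window of its variable exon occurs in another gene. Igkv3-2 had a ratio of 1.41 (1.23 to 1.60).

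Bleomycin against PBS in WT mice gave a lower kappa sum, but not every member was lower. Among all 163 members 23 were at least 2-fold higher and 36 lower, where 4.9% and 12.8% of all genes were with no filter. Among the 68 tested, 16 were higher and 24 lower, where 5.28% and 8.22% of all genes tested were, and their median log2 ratio was -0.25 beside 0.09 over all genes. The named members that led PBS-WT had ratios of -7.31 (-8.98 to -6.62) for Igkv4-74, -5.38 (-6.40 to -4.83) for Igkv4-50 and -4.44 (-4.71 to -4.22) for Igkv1-110. Without Igkv1-110 the log2 ratio of the summed members was -1.03.

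Igkv15-103 had the highest ratio of the tested members in WT. It had 9 reads in PBS-WT, 54 in PBS-HPS1, and 332 and 566 in BLEO-WT and BLEO-HPS1, and was higher with bleomycin in both genotypes, by a log2 ratio of 4.92 (4.25 to 6.34) in WT and 3.98 (3.63 to 4.47) in HPS1. No 50-base window of its variable exon occurs in another gene, and its nearest copy is only 79.2% identical. Igkv8-24 had 662, 316, 134 and 413 reads and Igkv10-96 had 502, 673, 104 and 380 reads, both lowest in BLEO-WT, with ratios of -2.30 (-2.59 to -2.04) and -2.26 (-2.60 to -1.97) in WT.

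In HPS1 mice bleomycin went with higher levels of most tested members, though not of most of the 163. Among all 163 members 63 were at least 2-fold higher and 14 lower, where 11% and 24.9% of all genes were with no filter. Among the 68 tested, 49 were higher and 5 lower, where 26.2% and 19.6% of all genes tested were. The median log2 ratio of the tested members was 2.57 beside 0.25 over all genes, and many genes besides the members moved in this comparison. Igkv6-23 had a log2 ratio of 5.15 (4.79 to 5.71). Igkv6-17, with 520, 102, 293 and 754 reads in PBS-WT, PBS-HPS1, BLEO-WT, then BLEO-HPS1, had one of 3.50 (3.23 to 3.85), and Iglv1 one of 3.07 (2.91 to 3.24). All 3 were at their lowest in PBS-HPS1. Igkv3-4, already high in PBS-HPS1, stood at -0.20 (-0.32 to -0.09) and Igkv5-39 at -1.22 (-1.43 to -1.03).

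**Figure D4:**
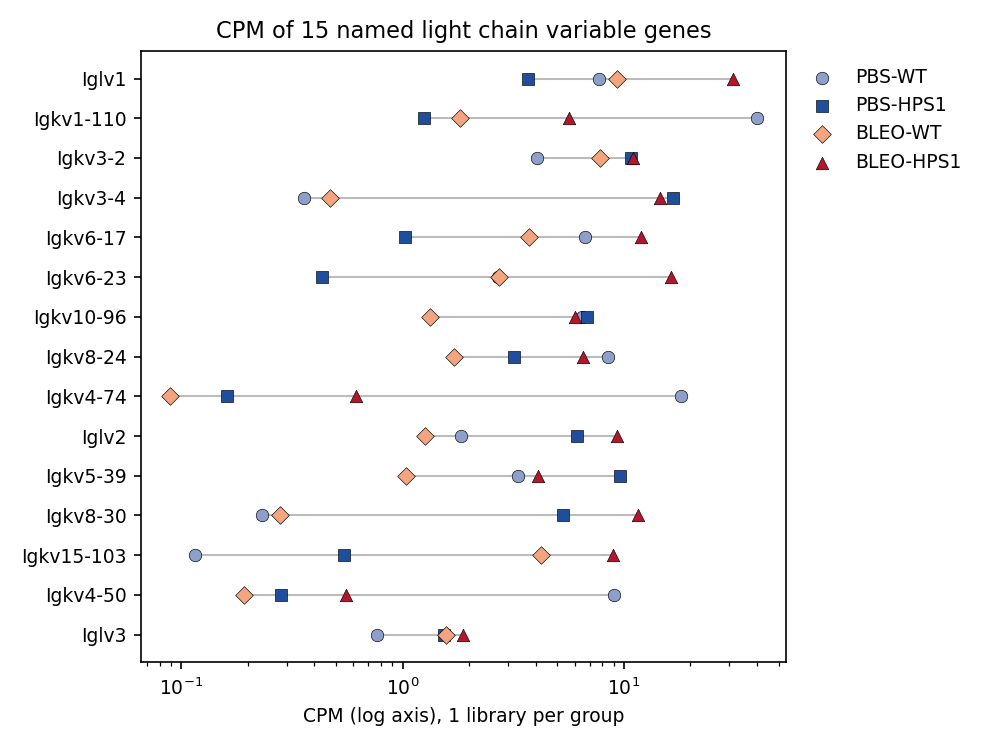
CPM of 15 named members (rows) on a log axis, with 1 point per library and a grey line from the lowest to the highest. Igkv1-110, Igkv4-74 and Igkv4-50 have a lone point at the right for PBS-WT, and Igkv3-4 and Igkv8-30 have both HPS1 points to the right of both WT points.

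The bleomycin ratios of the genotypes, which share no library, were often opposite. Of the 68 tested members 15 were at least 2-fold lower in WT and at least 2-fold higher in HPS1, where 0.485% of all genes tested were. The reverse held for Igkv4-57-1 and Igkv12-38, where 0.0539% of all genes were, and the WT ratio of Igkv12-38 rested on 1 and 4 reads, with a counting interval of -1.35 to 7.61. Both ratios were at least 2-fold higher for 12 members, where 3.99% of all genes were, and at least 2-fold lower for Igkv4-72 and Igkv5-39, where 5.44% were. Igkv4-72, Igkv4-57-1 and Igkv12-38 were named after their values were seen. The difference of the ratios, HPS1 minus WT, had a median of 3.16 over the tested members and of 0.15 over all genes tested. Over the 103 functional members with no filter it was 2.03. A member that passed the filter only through 1 high library had to lean to that library, so the counts among the 68 are a description.

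**Figure D5:**
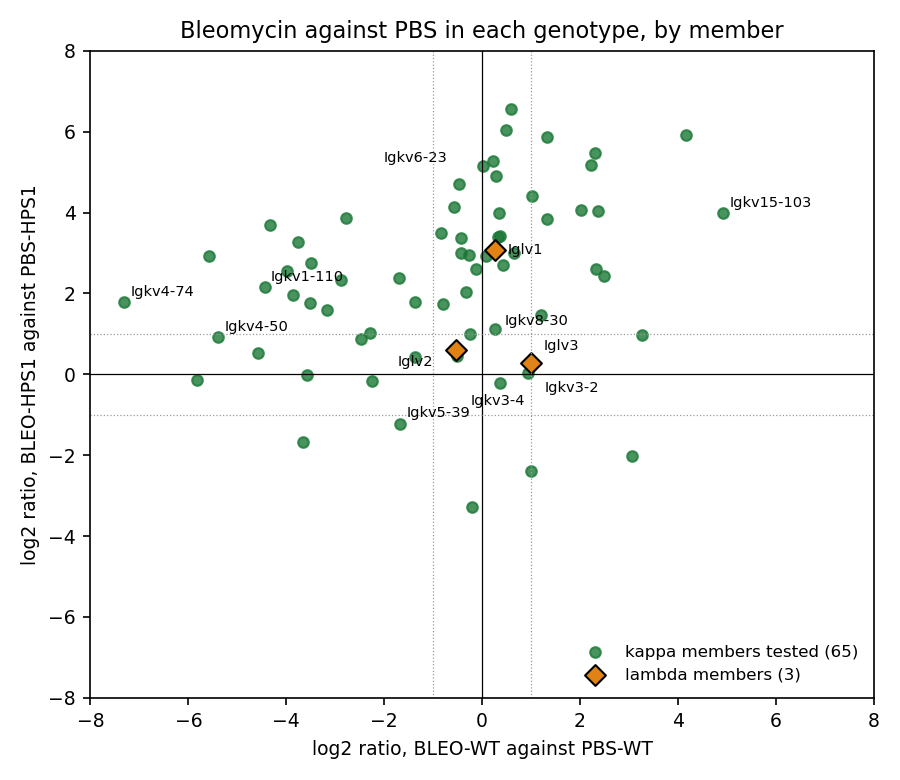
Log2 ratio of bleomycin to PBS in HPS1 (vertical axis) against that in WT (horizontal axis) for the 68 tested members, kappa as circles and lambda as diamonds, with dotted lines at 2-fold. The upper left corner beyond the dotted lines holds 15 members, among them Igkv4-74 and Igkv1-110, and Igkv15-103 lies at the upper right, at 4.92 and 3.98.

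Many members were close to private to 1 library. By a limit chosen after the values were seen, 21 of the 68 tested members had at least 80% of their CPM summed over the 4 libraries in a single library. In PBS-WT there were 5, where 0.175% of all genes tested met the limit, in PBS-HPS1 2, where 0.0202% did, in BLEO-WT none, where 0.027% did, and in BLEO-HPS1 14, where 0.209% did. Those of PBS-WT were Igkv14-130, Igkv1-110, Igkv1-99, Igkv4-74 and Igkv4-50, and those of PBS-HPS1 were Igkv12-38 and Igkv6-14. A member that passed the filter only through 1 high library had to lean to that library, so these counts are a description. With no filter 43 of the 163 members met the limit, beside 14.5% of all genes, and a gene with a single read meets it too.

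Of those in BLEO-HPS1, 2 were chosen after their values were seen to show the pattern. Igkv4-86 had 3 reads in PBS-WT, 12 in PBS-HPS1, and 5 and 608 in BLEO-WT and BLEO-HPS1. Igkv3-9 had 0, 1, 1 and 210 reads, and a log2 ratio, with no prior count, of 8.03 between the bleomycin libraries, with a counting interval of 5.53 to 13.34. Both were thus at or near the counting floor of 3 reads in the WT libraries. Igkv6-14 had 13, 551, 11 and 35 reads and was high in PBS-HPS1 alone. The highest library was BLEO-HPS1 for 48 of the 68 members, PBS-WT for 13, PBS-HPS1 for 7 and BLEO-WT for none, where it was BLEO-HPS1 for 41.4% of all genes tested, PBS-WT for 23.3%, PBS-HPS1 for 16.3% and BLEO-WT for 19.1%. Of the 101 functional members with a read in some library it was BLEO-HPS1 for 62, PBS-WT for 18, PBS-HPS1 for 16 and BLEO-WT for 5.

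The same order of libraries was found in members with few shared stretches. In 46 of the 103 functional members at least 80% of the 50-base windows of the variable exon occurred in no other gene, and these members had 3899, 4492, 1719 and 7159 reads in PBS-WT, PBS-HPS1, BLEO-WT, then BLEO-HPS1. In CPM they were highest in BLEO-HPS1, at 113, and lowest in BLEO-WT, at 21.9, and the other 57 functional members, at 240.5 and 46.8 CPM, were so too. BLEO-HPS1 against BLEO-WT gave a log2 ratio of 2.37 (2.29 to 2.45) for the first set and 2.36 (2.31 to 2.41) for the second. Igkv15-103, Igkv5-39, Igkv8-24, Igkv8-30, Igkv4-50 and Iglv3 were in the first set. GC content had a median of 48.3% in the tested members beside 49.8% over all genes tested. Across the 68 tested members, Spearman's rho of GC content with the log2 ratio was 0.169 in BLEO-HPS1 against BLEO-WT, 0.0941 between the PBS libraries and 0.0175 for bleomycin in HPS1, as a description.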

How the data were processed

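RNA-Seq was done on 4 libraries of sorted mouse lung ILC2s, 1 per group, made with a SMARTER mRNA-Seq kit. The authors deposited 1 table of raw counts per gene, with whole-number values, for 49315 Ensembl genes. The aligner, counter, genome build and treatment of reads that map to several genes are not given in the sources used here. Groups came from the labels, and 0 columns were left unused. All 163 members matched GENCODE M21 (GRCm38), from which biotype, position, strand and sequence were taken. Motifs before the start site or after the variable exon were not analysed here.

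Counts were scaled with edgeR 4.0.16 (TMM, R 4.3.3) and given as CPM, or as log2 CPM with a prior count of 2 for ratios of single members. Ratios of sums have no prior count. With 1 library per group no model was tested and no p-value was made. A member was called at a 2-fold ratio, among genes with at least 1 CPM in at least 1 library, and the same rule over all genes gave the background. Intervals are exact Clopper-Pearson intervals on reads. PCR reads without molecular identifiers are not independent molecules, so the intervals cover counting error only. A level of 3 reads or fewer was taken as the counting floor. Only the 2-fold rule was run on simulated data, as Poisson counts with planted changes. That run did not cover spread between replicates, near copies, intervals or shares.

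Named members were the 10 with the highest mean CPM, the 3 with most reads in each library, the highest of each kappa family with a member above 10 CPM, every lambda gene, and the 3 largest ratios in each direction of each of 4 comparisons among members with 10 CPM in the higher library. Members and lists were chosen with earlier results of these data known. Alternatives were DESeq2 1.42.0 size factors, total counts, TMM without immunoglobulin genes, other filters, thresholds and prior counts, a loess fit on GC content and transcript length (span 0.3), leaving out the first member, and functional genes alone. Figures and sums used Python 3.11.15 with pandas 2.3.3, scipy 1.17.1 and matplotlib 3.10.9.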

Additional observations from a re-analysis of the deposited data

Results flagged for a closer look

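The bleomycin to PBS log2 ratio was below 0 in WT and above 0 in HPS1, with counting intervals clear of 0 on both sides, for the sum of all members, for kappa and for 10 kappa families. No sum had the opposite order. The difference between the genotypes was not tested, since each ratio rests on 1 library per group. HPS1 minus WT, it was 2.81 for all members and 2.96 for kappa. By family it was 4.69 for family 1, 3.46 for family 2, 4.54 for family 4, 0.89 for family 5, 2.64 for family 6, 3.43 for family 8, 2.52 for family 10, 2.78 for family 12, 5.31 for family 13 and 4.65 for family 14. With total counts alone, the ratio in HPS1 turned below 0 for family 5, at -0.35, and for family 10, at -0.07.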

How the results depend on the processing

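No paired analysis was possible because each group has 1 library, and for the same reason no replicate could be left out. Of the 124 values recomputed under alternatives, 99 stayed within set limits, and none of the called ratios changed sign. The limit was the counting interval for summed ratios and lambda shares, and 1.5 times the value for counts and effective numbers. For medians it was a binomial interval on the ranks of the tested members, which are not replicates, and this limit was wide. The median in BLEO-HPS1 against PBS-HPS1 stayed inside it at 1.88 with total counts alone, beside 2.57 with TMM. The summed log2 ratio with total counts alone was 2.23 in BLEO-HPS1 against BLEO-WT, -0.20 in PBS-HPS1 against PBS-WT, -1.62 in BLEO-WT against PBS-WT and 0.81 in BLEO-HPS1 against PBS-HPS1, and with DESeq2 size factors it was 2.43 in the first. Total counts alone moved the median of all genes in BLEO-HPS1 against PBS-HPS1 from 0.25 to -0.43. Without Igkv1-110, the member with the most reads (3733), the sum gave -0.091 between the PBS libraries and -1.03 in BLEO-WT against PBS-WT. With no filter, 3 members were lower in BLEO-HPS1 against BLEO-WT, 36 higher in PBS-HPS1 against PBS-WT and 14 lower in BLEO-HPS1 against PBS-HPS1, and the median member stood at 1.08 and 0.00 in the bleomycin genotype comparison and in bleomycin against PBS in HPS1, since 38 members had no read. With at least 10 counts in every library, 11 members were higher in PBS-HPS1 against PBS-WT and 9 in BLEO-WT against PBS-WT. At a log2 threshold of 2 the counts were 9 higher and 14 lower in PBS-HPS1 against PBS-WT, 10 higher in BLEO-WT against PBS-WT and 3 lower in BLEO-HPS1 against PBS-HPS1. The loess correction for GC content and length gave 54 members higher and 1 lower in BLEO-HPS1 against BLEO-WT and a median of 2.12. Without the first member of each library the lambda share became 7.59%, 10.1%, 4.76% and 3.46% in PBS-WT, PBS-HPS1, BLEO-WT, then BLEO-HPS1, where Iglv1 was itself the member left out of the bleomycin libraries, and the effective number in PBS-WT became 21.6. The cause of the other changes was not tested. The checks of promoter and recombination motifs were not run, as no sequence of these windows was used here. Ratios of members with few reads are limited by depth: BLEO-WT held 5395 light chain variable reads, and 3 reads there stand for 0.0383 CPM.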

Other observations

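Joining gene segments were counted apart from the variable genes and had few reads. The 5 kappa joining genes together held 97, 175, 61 and 133 reads in PBS-WT, PBS-HPS1, BLEO-WT, then BLEO-HPS1. Igkj5 took the largest share in PBS-WT and PBS-HPS1, at 45.4% and 35.4%, and also in BLEO-HPS1, at 33.8%, while in BLEO-WT Igkj2 had 22 reads and Igkj5 21. Rag1, a subunit of the recombinase that joins V to J, had 15, 31, 0 and 2 reads in the same order, and Rag2, its partner, had 0, 1, 0 and 0. Vpreb1, part of the surrogate light chain of precursor B cells, had 14, 25, 6 and 14 reads. Among heavy chain constant genes, Igha, that of IgA, had 59.1, 159.0, 27.0 and 231.7 CPM, highest in the HPS1 libraries. Ighg3, of IgG3, had 23.5, 11.1, 0.536 and 1.88 CPM and was low in both bleomycin libraries.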
